A study of Aspergillus nidulans with 12 samples.

Results

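Of the 7729 genes of the filamentous fungus Aspergillus nidulans listed in both tables of this RNA-Seq series, 48 were selected on the ratio of their mean transcript levels, which were higher in the kaeA25/wt5 table than in the kaeA19/wt4 table. A gene was taken if its mean was above 0 in both tables, at least 150 in the kaeA25/wt5 table and there at least 4 times the mean of the kaeA19/wt4 table. The rule also left out 12 genes by name, of which 7 met these thresholds. The mean is the authors' own, in normalized fragments, and pools the mutant with its control, 6 libraries per table. The values that chose the genes are therefore given as a description, with no test, no SD and no replicate error, because values per library were not analysed here.

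Both tables come from mycelium grown in liquid minimal medium with nitrate and glucose. The kaeA25 strain is proA6, kaeA25, adF9, yA2, phenA2, and its control wt5 is proA6, adF9, yA2, phenA2. The kaeA19 strain is proA6, kaeA19, pabaA9 with a biA allele that the labels number differently from library to library, whereas the study's methods give it pabaA12 and biA1. Its control wt4 is proA6, pabaA9, biA1. All 4 strains thus carry proA6, and each was sampled in 3 libraries, 12 in all. The gene kaeA (AN6569) codes for a subunit of the KEOPS complex, which modifies tRNA. The study itself compared each mutant with its own control, so the contrast between the tables set out here is one between strain backgrounds with different nutritional and colour markers. The mutants, the controls, the markers, any supplement added for them and the separate normalization of the tables cannot be told apart in it. A high pooled mean may also come from the mutant, the control or a single library. Replicates are independent biological experiments according to the study.

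Filamentous fungi keep the genes for many secondary metabolites, small molecules that are not needed for growth, side by side in clusters. Such a cluster typically holds a polyketide synthase or a non-ribosomal peptide synthetase, the large enzyme that builds the carbon or peptide skeleton, together with tailoring enzymes, transporters and often its own transcription factor. Cluster genes are commonly silent in young mycelium and are known to be switched on together by regulators, by chromatin changes or by the nutrient supply. In A. nidulans the aspercryptin, dba and orsellinic acid clusters lie close to each other, dba being named after derivatives of benzaldehyde.

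The 48 genes belong to the 55 of 6300 genes, 0.873%, that passed the ratio of 4 among those above 0 in both tables and at 150 or more in the kaeA25/wt5 table, with no gene left out. The remaining 7 were AN2621, AN2622, AN2623, AN1896, AN1897, AN1899 and AN6932. In the opposite direction 52 of 6282 genes, 0.828%, were at least 4 times higher in the kaeA19/wt4 table under the same minimum. The rule used this contrast, so nothing is read from these shares. A further 15 genes met the thresholds but were listed at 0 in the kaeA19/wt4 table, and are not among the 48. Most genes had similar means in the tables. Over the 6125 genes at 150 or more in both, the median ratio of kaeA25/wt5 over kaeA19/wt4 was 0.967, and the 5th and 95th percentiles were 0.600 and 1.45. The means summed to 21992800 in the kaeA25/wt5 table and to 22310300 in the kaeA19/wt4 table.

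**Figure D1:**
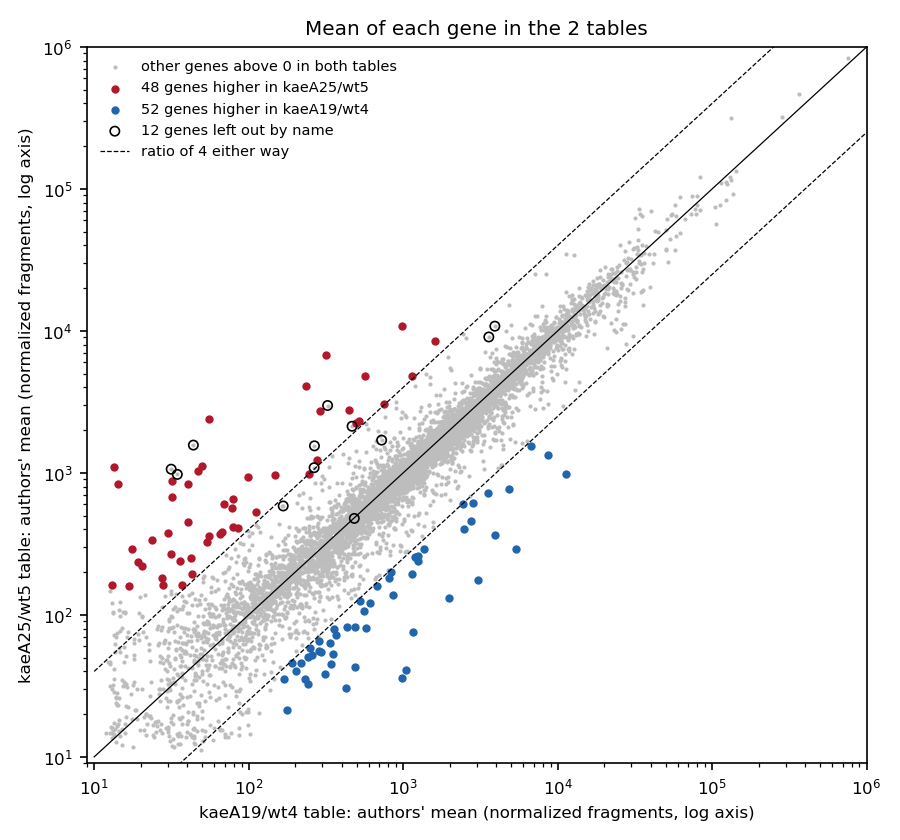
Authors' mean of each gene above 0 in both tables, in normalized fragments on log axes, kaeA25/wt5 on the vertical and kaeA19/wt4 on the horizontal axis; the solid line is a ratio of 1 and the dashed lines a ratio of 4. The 48 chosen genes lie above the upper dashed line, the 52 genes of the opposite direction below the lower one, and black rings mark the 12 genes left out by name.

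Among the 48 genes the ratio ran from 4.01 to 81.5, with a median of 8.33. It was at least 20 for 9 genes, at least 10 for 18 and between 4 and 6 for 16. Their kaeA25/wt5 means ran from 158.7 to 10771 with a median of 630, against kaeA19/wt4 means of 12.99 to 1609 with a median of 55.6. The median kaeA25/wt5 mean of all 6300 genes compared was 1286, so that most of the 48 were of moderate or low abundance also where they were high. The 52 genes of the opposite direction had a median ratio of 5.28, turned so that kaeA19/wt4 stands on top, and a highest ratio of 27.4. Of these, 10 reached a ratio of 10 and 2 a ratio of 20.

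Low means limit how firmly the ratios can be read. The smallest mean above 0 was 11.2 in the kaeA25/wt5 table and 11.8 in the kaeA19/wt4 table, and no mean lay between 0 and 10. If the smallest mean is 1 library at such a limit and 5 at 0, the limit is 67.1 fragments per library for kaeA25/wt5 and 70.7 for kaeA19/wt4. For 28 of the 48 genes the kaeA19/wt4 mean was below this limit, so at least 1 of the 6 libraries was below it. Set against the limit instead of the mean, 37 of the 48 genes kept a ratio of at least 4. Below, these ratios against the limit are given as "at least about". They are approximate and not strict bounds. Libraries above the limit can be pooled with libraries at 0, and the true mean can then exceed the limit. Means already above the limit were kept as they are. No depth per library was used, so the counting error is unknown.

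**Figure D2:**
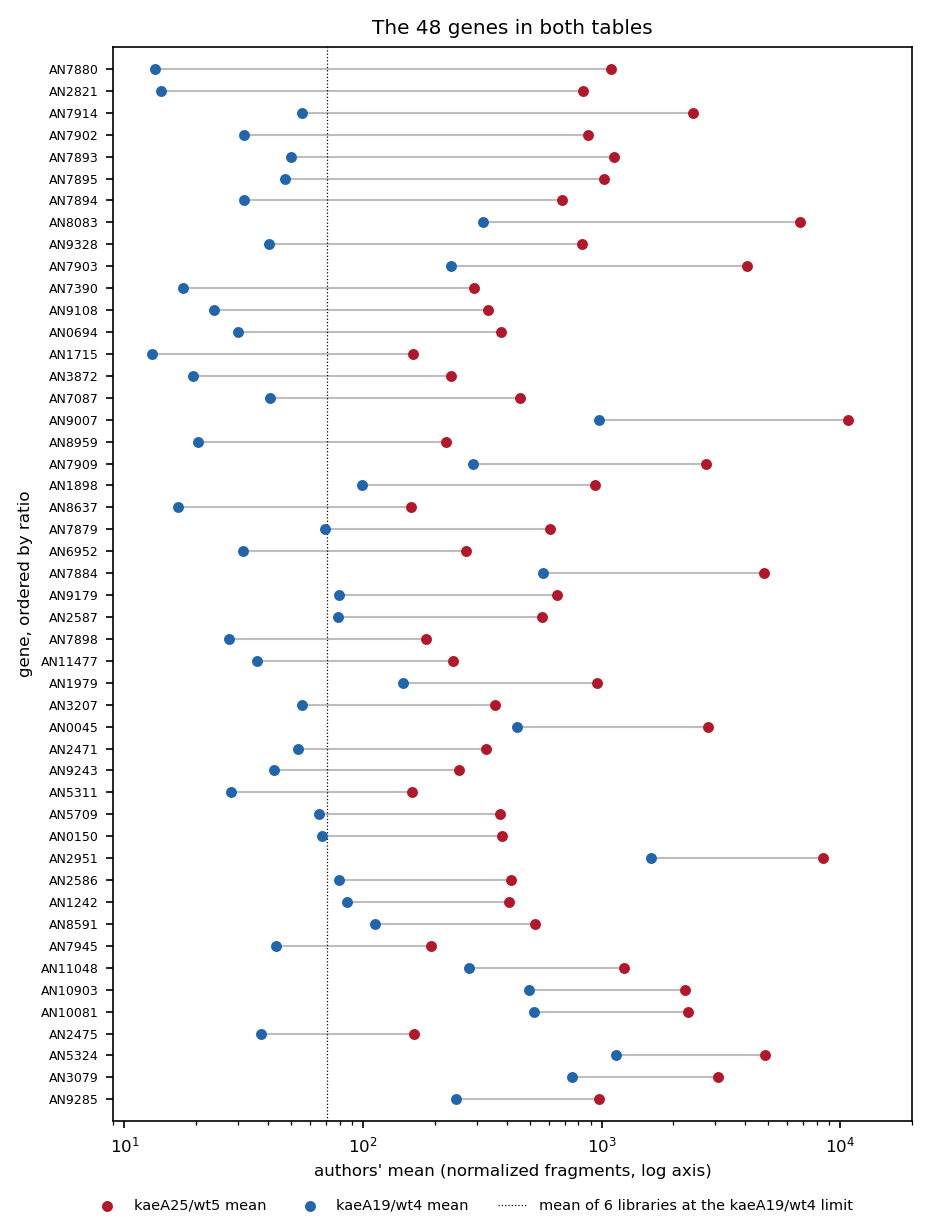
The 48 genes in order of ratio, with the authors' mean in the kaeA25/wt5 table (red) and in the kaeA19/wt4 table (blue) in normalized fragments on a log axis; the dotted line marks the kaeA19/wt4 limit of 70.7. In 28 genes the blue point lies left of the dotted line, and AN7880 has the widest gap.

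A feature that the rule did not use was the place of some of the 48 genes in secondary metabolite clusters. Of the 48, 12 genes or 25% belonged to 1 of 13 lists of such clusters, compared with 22 of the 6300 genes compared (0.349%) and 0 of the 52 genes of the opposite direction. Of these 12, 11 stood in the aspercryptin, dba and orsellinic acid lists. All 28 listed genes of these 3 clusters had a higher mean in the kaeA25/wt5 table, 9 of them being listed at 0 in the kaeA19/wt4 table, whereas 44.7% of all 7729 genes were higher in kaeA25/wt5. Some of the 28 were under the limit in both tables, such as AN7901 (35.2 in kaeA25/wt5) and AN7874 (48.6), both at 0 in kaeA19/wt4. Their direction cannot be read. The 6300 genes had to reach the minimum mean of the rule in kaeA25/wt5, and the 52 had to reach it in kaeA19/wt4. Genes of these lists that were low in kaeA19/wt4, such as AN7893 and AN7880, could thus count among the 48 but not among the 52. The rule itself therefore bears on the shares among the 48, the 6300 and the 52 genes. The lists were also drawn up with results of these data known, so these counts are descriptive.

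The dba cluster (AN7893 to AN7903) had the largest median ratio of the gene lists, 21.5 over its 7 genes above 0 in both tables. All 11 of its genes were listed. Of these, 6 are among the 48, and 4 more were at 0 in the kaeA19/wt4 table. The means of its genes summed to 8953 in kaeA25/wt5 and 507 in kaeA19/wt4, a ratio of 17.7. At one end of the cluster, the neighbours AN7893, AN7894 and AN7895 were close to each other in both tables. AN7893 had a mean of 1124 in kaeA25/wt5 and 49.8 in kaeA19/wt4, a ratio of 22.6 or, against the limit, of at least about 15.9. AN7894 had 681 in kaeA25/wt5 and 31.7 in kaeA19/wt4 (ratio 21.5, at least about 9.64). AN7895 had 1027 in kaeA25/wt5 and 47.0 in kaeA19/wt4 (ratio 21.9, at least about 14.5). All 3 kaeA19/wt4 means were under the limit, so the order of these ratios cannot be read.

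At the other end, the neighbours AN7902 and AN7903 were both high in the kaeA25/wt5 table. AN7902 had a mean of 881 in kaeA25/wt5 and 31.8 in kaeA19/wt4 (ratio 27.7, at least about 12.5). AN7903 was the most abundant gene of the cluster, with 4076 in kaeA25/wt5 and 235 in kaeA19/wt4. Its ratio was 17.4, with both pooled means above the limit. In the middle of the cluster, AN7898 had 183 in kaeA25/wt5 and 27.5 in kaeA19/wt4, a ratio of 6.66 (at least about 2.59). The genes beside AN7898 were listed at 0 in kaeA19/wt4 and so are not among the 48, although AN7897 had 390, AN11584, which is not in the list, had 457, AN7899 had 230 and AN7900 had 203 in kaeA25/wt5. Among the genes of the dba list above 0 in both tables, AN7896 alone stayed under a ratio of 4, with 122 in kaeA25/wt5 and 84.2 in kaeA19/wt4.

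In the aspercryptin cluster, which makes a lipopeptide with a non-ribosomal peptide synthetase, 3 of the 12 listed genes are among the 48 and 5 were at 0 in kaeA19/wt4. AN7880 had the largest ratio of all 48 genes, with a mean of 1093 in kaeA25/wt5 and 13.4 in kaeA19/wt4 (ratio 81.5). Since 13.4 is close to the smallest mean in the table, the ratio is better read as at least about 15.5. Its neighbour AN7879 had 609 in kaeA25/wt5 and 69.1 in kaeA19/wt4 (ratio 8.81, at least about 8.61). AN7884 had the highest kaeA25/wt5 mean of the cluster, 4800 compared with 566 in kaeA19/wt4, a ratio of 8.49. It is also the longest of the 48 genes in the RefSeq annotation, at 21944 bases, and per kilobase its mean was 219 in kaeA25/wt5 and 25.8 in kaeA19/wt4. Per kilobase, AN7880 was at a similar level in kaeA25/wt5 (194.6) but at a lower one in kaeA19/wt4 (2.39). Other genes of the cluster were higher on this scale, such as AN7877 with 1574 in kaeA25/wt5 and 1093 in kaeA19/wt4.

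At the other side of the aspercryptin cluster, genes expressed in both tables stood beside genes listed at 0 in kaeA19/wt4. Those at 0 were AN7874, AN7875 and AN7876, with 48.6, 272 and 377 in kaeA25/wt5. AN7873 had a mean of 2735 in kaeA25/wt5 and 1292 in kaeA19/wt4, and AN7877 had 2055 in kaeA25/wt5 and 1428 in kaeA19/wt4. AN7878 stood just outside the rule, with 393 in kaeA25/wt5 and 98.7 in kaeA19/wt4, a ratio of 3.98. The summed means of the cluster were 13190 in kaeA25/wt5 and 3720 in kaeA19/wt4, a ratio of 3.55, with AN7873, AN7877 and AN7884 together making up most of both sums.

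The orsellinic acid cluster, which is built around a polyketide synthase, contributed the genes at its ends. AN7914 had a mean of 2416 in kaeA25/wt5 and 55.8 in kaeA19/wt4 (ratio 43.3, at least about 34.2), the largest ratio against the limit of the 48. AN7909 had 2748 in kaeA25/wt5 and 289 in kaeA19/wt4, a ratio of 9.52 with both means above the limit. Between them, AN7911 reached a ratio of 6.47 with 138 in kaeA25/wt5 and 21.4 in kaeA19/wt4, below the minimum of 150. AN7912 had 235 in kaeA25/wt5 and 82.4 in kaeA19/wt4, and AN7913 had 881 in kaeA25/wt5 and 544 in kaeA19/wt4. All 5 listed genes of the cluster were thus higher in kaeA25/wt5, by unequal ratios.

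The 3 clusters lie in 1 stretch of the genome. In the gene order of the RefSeq annotation, 46 genes stand from AN7872 to AN7914, and 37 of them were listed. Of the 37, 35 had a higher mean in kaeA25/wt5, 11 are among the 48, and 13 were at 0 in kaeA19/wt4 with kaeA25/wt5 means between 15.9 and 457. None was at 0 in kaeA25/wt5. The 13 others had ratios of 0.747 to 6.47. Where both means were under the limit, as at AN7904 (15.9 in kaeA25/wt5) and AN11031 (31.4), the direction cannot be read. The differences were not continuous along the stretch. Between the aspercryptin and dba clusters, AN7889 had 793 in kaeA25/wt5 and 825 in kaeA19/wt4, and AN7892, directly beside AN7893, had 3832 in kaeA25/wt5 and 3677 in kaeA19/wt4. Past the orsellinic acid cluster, the 7 listed genes from AN7915 to AN7925 had ratios of 0.516 (AN7922) to 1.79 (AN7917), 3 of them below 1.

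**Figure D3:**
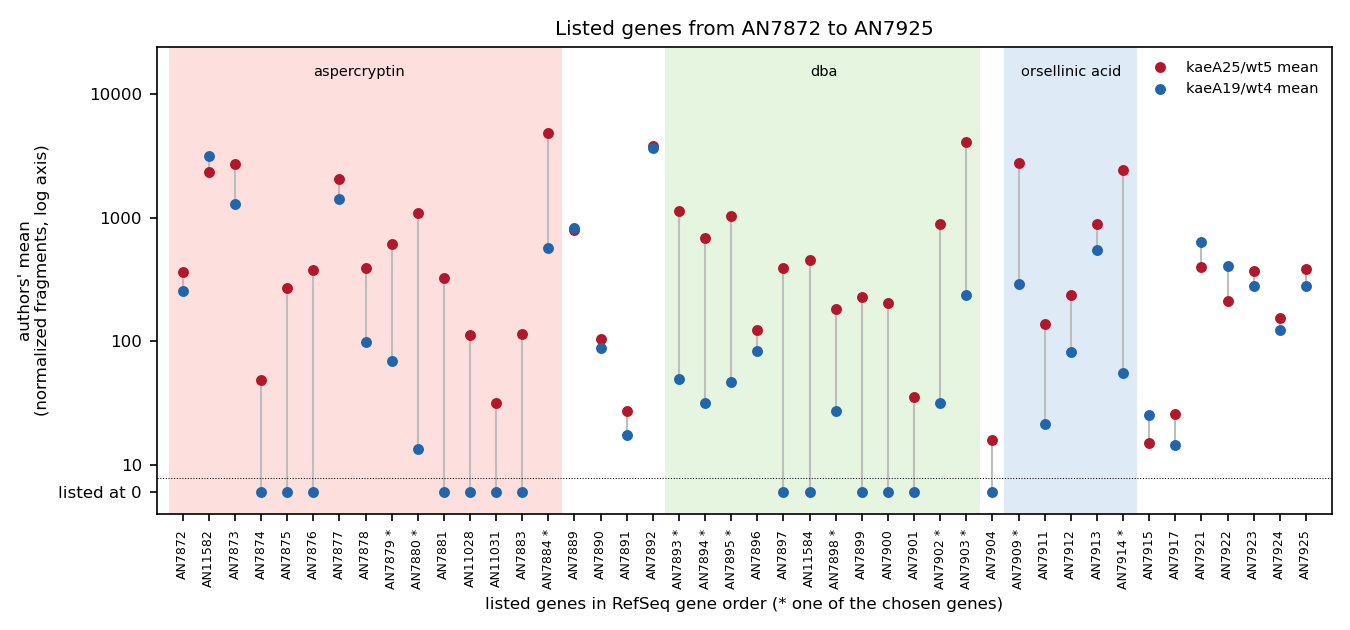
Authors' means of the listed genes from AN7872 to AN7925 in RefSeq gene order, kaeA25/wt5 in red and kaeA19/wt4 in blue, in normalized fragments on a log axis; points under the dotted line are listed at 0, shading marks the 3 clusters and asterisks the chosen genes. The gaps between the colours are wide at most genes of the dba cluster and narrower at AN7889 to AN7892 and from AN7915 on, where either colour can be the higher.

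Some of the 48 genes stood next to each other, most of them in this stretch. Of the 48 genes, 9 stood directly next to another of them in gene order (18.75%), compared with 2 of the 52 genes of the opposite direction (3.85%). Only 49 of the 52 could be placed in this order, whereas all 48 could. Genes left out by name were not counted, although AN1897 and AN1899, on either side of AN1898, met the thresholds. The opposite direction lost no gene in this way. With up to 2 RefSeq genes allowed between them, the difference was small, 9 compared with 8 genes. With at most 2 listed genes between, the count for the 48 was 10. Of the 9, 7 lie in the stretch, as the runs AN7879 and AN7880, AN7893 to AN7895, and AN7902 and AN7903. The 11 members in the stretch had a median ratio of 21.5 and a median kaeA25/wt5 mean of 1093, and the 37 others a median ratio of 6.44 and a median kaeA25/wt5 mean of 417. The rule used these values, and the stretch was chosen with them known, so nothing is read from the difference. In length the 48 genes resembled the genes compared, with a median of 1644 bases in the RefSeq annotation compared with 1699.

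The other secondary metabolite list with a member was that of monodictyphenone, a polyketide. Its member AN0150, named tpcC in RefSeq, had a mean of 381 in kaeA25/wt5 and 67.3 in kaeA19/wt4 (ratio 5.66, at least about 5.39). Beside it AN0149 was listed at 57.8 in kaeA25/wt5 and at 0 in kaeA19/wt4, whereas AN0153 was equal in the tables, at 2207 in kaeA25/wt5 and 2188 in kaeA19/wt4. AN1242, named nrps1 in RefSeq and so a non-ribosomal peptide synthetase gene outside the lists, had 409 in kaeA25/wt5 and 85.7 in kaeA19/wt4, a ratio of 4.78. Per kilobase of its 19166 bases, its mean was only 21.4 in kaeA25/wt5 and 4.47 in kaeA19/wt4, well below the per-kilobase means of AN7884.

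Other secondary metabolite clusters held none of the 48 genes, and their listed genes did not share the direction. The emericellamide genes had a median ratio of 1.65 over 3 genes and the fellutamide genes of 1.37 over 2. The aspyridone genes had a median of 0.857 over 2 genes and the pimaradiene genes of 0.850 over 2. For sterigmatocystin, known as an intermediate of aflatoxin synthesis in related fungi, the median was 0.353 over 3 genes, and 4 of its 7 listed genes were at 0 in kaeA25/wt5 only. The single asperfuranone gene above 0 in both tables had a ratio of 1.74, and the single such asperthecin gene of 1.13. A higher mean in kaeA25/wt5 was therefore not shared by every one of these lists. The penicillin genes, which stand in none of the lists and were left out by the rule, had larger ratios. AN2621 (acvA), the gene for the non-ribosomal peptide synthetase of penicillin synthesis, had 1571 in kaeA25/wt5 and 43.9 in kaeA19/wt4 (ratio 35.8, at least about 22.2). AN2623 (aatA), for the acyltransferase of the pathway, had 977 in kaeA25/wt5 and 34.5 in kaeA19/wt4 (ratio 28.3, at least about 13.8). AN2622, which lies between them, had 1063 in kaeA25/wt5 and 31.5 in kaeA19/wt4 (ratio 33.7, at least about 15.0).

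**Figure D4:**
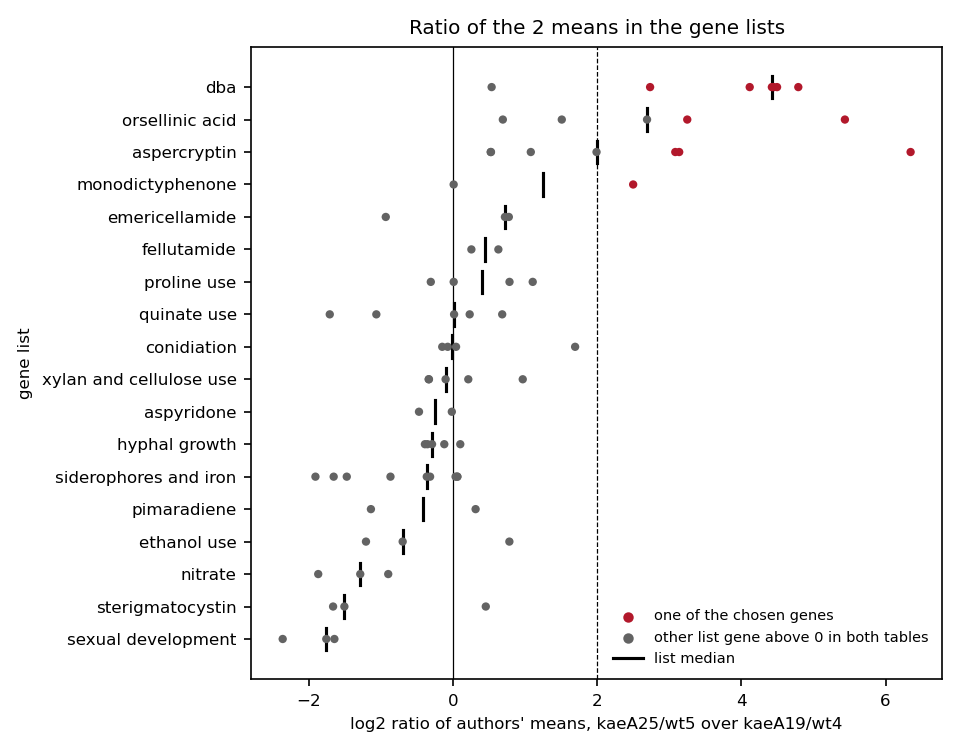
Log2 ratio of the authors' means, kaeA25/wt5 over kaeA19/wt4, for the genes above 0 in both tables in each list with at least 2 such genes; red points are chosen genes, grey points other genes, black bars list medians, and the dashed line is a ratio of 4. The dba, orsellinic acid and aspercryptin lists have the highest medians, and the red points lie in these lists and in that of monodictyphenone.

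None of the genes in the nutrient lists or the marker lists was among the 48. The 3 nitrate genes, for uptake and reduction of the nitrogen source supplied, had a median ratio of 0.411, and the 4 proline use genes of 1.37. The medians were 1.01 for 5 quinate use genes, 0.618 for 3 ethanol use genes, 0.779 for 9 siderophore and iron genes and 0.933 for 5 xylan and cellulose use genes. The median over all 6300 genes compared was 0.973. None of the 68 compared genes in the chromatin regions that the study ascribes to KaeA, and none of the 80 compared genes for proteins it found with KaeA, was among the 48 or the 52. The shares over all genes compared were 0.873% and 0.828%, which for lists of this size come to less than 1 gene, so nothing is read from these counts.

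The label mycelium was checked with markers of hyphal growth. The actin gene actA had a mean of 48678 in kaeA25/wt5 and 62071 in kaeA19/wt4, and 5 of 5 growth markers summed to 233410 in kaeA25/wt5 and 270381 in kaeA19/wt4. Markers of conidiation, the formation of asexual spores, were low in both tables, the 4 listed of 6 summing to 513 in kaeA25/wt5 and 461 in kaeA19/wt4, and brlA and rodA were not analysed here. abaA had 51.8 in kaeA25/wt5 and 57.3 in kaeA19/wt4. Of the 4 listed, wetA alone differed more, with 83.9 in kaeA25/wt5 and 25.9 in kaeA19/wt4. The latter is below the limit of 70.7, so the size of this difference cannot be read. yA had 221 in kaeA25/wt5 and 214 in kaeA19/wt4, although yA2 is carried only by kaeA25 and wt5. Of the markers of sexual development, nosA, rosA and esdC differed in the opposite direction to the 48 genes. The study describes nosA and rosA as negative regulators of this development. Their levels, and the sum and median of the list, are therefore not a measure of sexual cells. nosA had 1066 in kaeA25/wt5 and 3327 in kaeA19/wt4, and esdC had 3836 in kaeA25/wt5 and 12934 in kaeA19/wt4. rosA had 56.0 in kaeA25/wt5, below the limit of 67.1, and 287 in kaeA19/wt4. The 4 listed of 5 sexual markers summed to 5004 in kaeA25/wt5 and 16548 in kaeA19/wt4. matB had 45.6 in kaeA25/wt5, also below the limit, and was at 0 in kaeA19/wt4, so its direction cannot be read. Of the 3 marker lists, the sexual markers alone had a median ratio outside the range of 0.600 to 1.45 given above. It was 0.297 over the 3 genes above 0 in both tables, without matB, compared with 0.992 for conidiation and 0.819 for growth. The part of the sexual markers in the ratios of the 48 genes was not tested. In bulk mycelium, fewer cells of a type and less RNA per cell cannot be told apart.

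Few of the 48 genes outside the clusters have a name. AN1898 (hmgX) belongs to the gene cluster for the breakdown of phenylalanine through homogentisate, and lies between AN1897 and AN1899, which the rule left out. It had a mean of 938 in kaeA25/wt5 and 98.7 in kaeA19/wt4, a ratio of 9.50. The left-out genes of the cluster were higher in kaeA25/wt5 too. AN1897 (hmgA), the homogentisate dioxygenase gene, had 2132 in kaeA25/wt5 and 467 in kaeA19/wt4 (ratio 4.56), and AN1899 had 2985 in kaeA25/wt5 and 324 in kaeA19/wt4 (ratio 9.20). AN1898 and AN1899 thus had like ratios. The marker phenA2 is carried by both kaeA25 and wt5, and its part in these values was not tested.

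AN8637 (catA) encodes a catalase, an enzyme that removes hydrogen peroxide, which is known from conidia. It had the lowest kaeA25/wt5 mean of the 48, 158.7 compared with 16.7 in kaeA19/wt4 (ratio 9.48, at least about 2.25). AN10903 has orthologs with guanine deaminase activity according to the study's annotation, and guanine deaminase converts guanine to xanthine in purine breakdown. It had 2235 in kaeA25/wt5 and 498 in kaeA19/wt4, a ratio of 4.49. Among the left-out genes of the purine pathway, AN6932 had a ratio of 4.10, AN9470 of 2.75 and AN5613 (hxA), the gene for xanthine dehydrogenase, of 2.53. For AN7087 the study's annotation names only orthologs in other aspergilli. This gene had 453 in kaeA25/wt5 and 40.6 in kaeA19/wt4 (ratio 11.2, at least about 6.41).

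The other 31 genes have no name or annotation in the sources used and stand in no list, and some of them were the most abundant of the 48. AN9007 had the highest mean, 10771 in kaeA25/wt5 and 978 in kaeA19/wt4, a ratio of 11.0. AN2951 had 8471 in kaeA25/wt5 and 1609 in kaeA19/wt4, a ratio of 5.26. AN8083 had 6816 in kaeA25/wt5 and 318 in kaeA19/wt4, a ratio of 21.4, the largest of those whose kaeA19/wt4 mean was above the limit. The direct neighbours of AN8083 were listed at 0 in kaeA19/wt4 and at no more than 18.3 in kaeA25/wt5. They thus went the same way, but near the smallest mean. AN5324 (4839 in kaeA25/wt5 and 1145 in kaeA19/wt4), AN3079 (3077 in kaeA25/wt5 and 749 in kaeA19/wt4) and AN0045 (2784 in kaeA25/wt5 and 443 in kaeA19/wt4) followed with ratios of 4.23, 4.11 and 6.28. The pooled means of these genes were above the limit in both tables, although a single library could still lie below it.

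Large ratios from low kaeA19/wt4 means were seen for 2 further genes without a name. AN2821 had a mean of 839 in kaeA25/wt5 and 14.2 in kaeA19/wt4, the second largest ratio of the 48 (59.0, at least about 11.9). Its neighbours AN2822 and AN2823 were listed at 0 in kaeA19/wt4, with 174 and 26.5 in kaeA25/wt5. AN9328 had 831 in kaeA25/wt5 and 40.4 in kaeA19/wt4 (ratio 20.6, at least about 11.8), and beside it AN9327 had 218 in kaeA25/wt5 and was listed at 0 in kaeA19/wt4. A low or zero kaeA19/wt4 value was thus shared with a direct neighbour at both genes.

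The only run of neighbours outside the stretch was that of AN2586 and AN2587. AN2586 had a mean of 417 in kaeA25/wt5 and 79.6 in kaeA19/wt4 (ratio 5.24), and AN2587 had 563 in kaeA25/wt5 and 78.4 in kaeA19/wt4 (ratio 7.17). The next gene, AN2588, had 61.9 in kaeA25/wt5 and 22.6 in kaeA19/wt4, a ratio of 2.74. Both genes of the pair thus had kaeA19/wt4 means just above the limit, and neither is annotated in the sources used.

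Apart from AN9285, AN5311 and AN1715, which stand near the thresholds and are given below, the remaining 18 genes without a name or list had ratios of 4.38 to 16.4 with a median of 6.48. Their means ran from 163 to 2304 in kaeA25/wt5 and from 17.7 to 521 in kaeA19/wt4. The largest ratio among them was that of AN7390, with 291 in kaeA25/wt5 and 17.7 in kaeA19/wt4 (ratio 16.4, at least about 4.11). AN10081 had the highest kaeA25/wt5 mean among them, 2304 compared with 521 in kaeA19/wt4 (ratio 4.42). At AN0694, with 378 in kaeA25/wt5 and 29.9 in kaeA19/wt4 (ratio 12.6, at least about 5.35), the neighbour AN0693 was also higher in kaeA25/wt5, at 384 compared with 119 in kaeA19/wt4. AN2471 (327 in kaeA25/wt5 and 53.6 in kaeA19/wt4) and AN2475 (163 in kaeA25/wt5 and 37.2 in kaeA19/wt4) lie a few genes apart, and between them AN2472 had 96.6 in kaeA25/wt5 and 20.5 in kaeA19/wt4, below the minimum of 150.

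The thresholds cut through a continuous range. Just inside the ratio of 4 were AN9285 (4.01, with means of 980 in kaeA25/wt5 and 245 in kaeA19/wt4), AN3079 and AN5324, and just outside were AN7878 (3.98), AN2648 (3.88) and AN1726 (3.85). Just inside the minimum of 150 in kaeA25/wt5 were AN8637 (158.7), AN5311 (161.2) and AN1715 (161.6), and just outside were AN10011 (147.3), AN8962 (146.3) and AN5940 (140.0).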

How the data were processed

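RNA of 12 libraries was rRNA-depleted and sequenced in pairs by the authors. According to the study's methods, TopHat2 and Bowtie2 placed the reads on the FGSC A4 genome of AspGD and fragments were counted per gene. The sources used do not state whether counting used the strand, so overlapping genes, antisense genes and near-identical copies are uncertain.

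The deposited signal is the authors' mean of normalized fragments over the 6 libraries of a table, and each of the 2 tables was normalized separately. The 5 other columns of each table hold the authors' comparison of mutant and control (log2 fold change, its standard error, statistic, p-value and adjusted p-value) and were not used.

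Ratios of means, neighbours and lists were computed in Python 3.11.15 with numpy 2.4.6 and pandas 2.3.3 (figures: matplotlib 3.10.9), and the selection was tested on simulated data. No test was run, since no values per library were analysed. RefSeq (ASM1142v1) gave names, lengths and gene order for 7336 of 7729 IDs and for all 48 chosen genes. Its gene models can differ from those counted, and no coordinates were taken from it.

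The chosen genes and the 22 gene lists were selected with earlier results of these data known. Named in the text are the 10 genes with the largest ratio, the 10 with the highest kaeA25/wt5 mean, genes in runs of neighbours, genes with a name or annotation, genes in a list, and the 3 nearest each threshold; other genes were chosen after their values were seen. Alternatives changed scaling, thresholds, the constant added to the means and the treatment of low means.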

Additional observations from a re-analysis of the deposited data

How the results depend on the processing

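Rescaling the tables to a median ratio of 1 or to the same sum gave 50 and 49 genes in place of 48, all of the 48 among them, and 50 and 51 in place of 52 in the opposite direction. The number moved with the thresholds, to 87 at a ratio of 3, 25 at a ratio of 8, 78 with no minimum mean, 25 at a minimum of 600 and 26 with a kaeA19/wt4 mean of at least 50. The median ratio, 8.33, was 4.47 with 50 added to both means and 5.25 with low kaeA19/wt4 means raised to the limit. Without the genes from AN7872 to AN7914, 2 genes in place of 9 stood next to another, again not counting the genes left out by name. The last pair of alternatives was chosen after seeing the data. No paired analysis was possible because the tables hold 1 mean over 6 libraries. For the same reason no replicate could be left out. The limit on low means affects how the ratio of 28 genes can be read.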
